A study of Mus musculus with 9 samples.

Results

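The 105 predicted microRNAs of mouse serum small extracellular vesicles (sEVs) are described here, across 9 small RNA libraries. They are all the rows that the depositors list apart from the known microRNAs, whatever their level. They make up 8.98% of the 1169 microRNAs in the full count table, the other 1064 being known ones. Small RNA was sequenced from vesicles precipitated from serum with a commercial reagent, in 3 groups of 3 libraries. The first group came from wild-type mice on chow (chow WT). The second came from mice labelled wild type and fed a high fat diet (HFD WT), and the third from mice fed the same diet that overexpress Sirt3 in adipose tissue only (HFD Sirt3 AKI). Sirt3 is a mitochondrial deacetylase. Messenger RNA was not measured, so the overexpression could not be checked. The labels give neither the promoter that drives the overexpression nor the ages or the number of animals behind a library, so the p-values below measure the spread between libraries, which may be technical. The library names of HFD WT carry a Sirt3 knock-in code that those of chow WT do not, although both groups are labelled wild type. HFD Sirt3 AKI replicates 2 and 3 carry another batch label than the other 7 libraries.

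A microRNA is cut from a hairpin precursor by Drosha and Dicer, and a short mature strand of the hairpin is loaded onto an Argonaute protein, which it guides to messenger RNAs. Prediction programs look for loci outside the known set whose reads stack at the ends of a foldable hairpin, as Dicer products do. Fragments of ribosomal, transfer or small nucleolar RNA and of repeats can produce similar stacks. Predicted microRNAs are therefore candidates, and serum, which mixes RNA from blood cells, liver, endothelium and other tissues, holds many RNA fragments besides microRNAs.

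Each predicted microRNA is named only by an identifier of 2 parts. The first part takes 20 values, from 1 to 19 and X. The second is a running number, from 32 to 34518 among these rows, that rises without exception through the first parts taken in text order (1, 10, 11 and so on). What the parts stand for is not given in the sources used here. No sequence, hairpin or coordinate of a predicted microRNA was at hand, so none is printed, and seeds and targets were not analysed here. The first part 7 had the most members, with 13, and X and 13 had 1 each.

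The predicted microRNAs held 1546 of 13781630 counts, or 0.0112%. The chow WT libraries held 225002 to 306974 counts in all, those of HFD WT 1953935 to 2162009, and those of HFD Sirt3 AKI 1729416 to 2973432. Summed over the group, HFD WT held 7.45 times and HFD Sirt3 AKI 8.26 times as many microRNA counts as chow WT. Depth here means this total of microRNA counts, not the number of reads sequenced. All 13 microRNAs used to check for blood, liver, endothelium and other tissues were detected in all 9 libraries. The red cell microRNAs miR-451a, miR-486a-5p and miR-16-5p together took 28.6 to 30.3% of the chow WT counts, 36.5 to 39.1% of those of HFD WT and 29.2 to 37.0% of those of HFD Sirt3 AKI. In HFD Sirt3 AKI replicate 2, miR-122-5p of hepatocytes and the brain microRNAs miR-9-5p and miR-124-3p were at their highest. The 2 brain microRNAs together took 0.432% of its counts, against 0.0108 to 0.0972% in the other 8 libraries. Summed shares of the skin and epithelium (1.39%) and striated muscle (1.03%) microRNAs were also highest there. Those of red cells, myeloid cells and platelets, and endothelium were not. Replicate 3, of the same batch label, came next for hepatocytes (1.02%) and for skin and epithelium (0.681%).

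Most predicted microRNAs were scarce and seen in few libraries. The median member had 5 counts over all 9 libraries, against 17 for a known microRNA, and 78 members had fewer than 10 counts. Counts came from exactly 1 library for 42 members (40.0%, against 18.8% of known microRNAs). Only 3 members, 13_8063, 2_17591 and 6_27109, were detected in all 9 libraries (2.86%, against 34.1% of known microRNAs). By group, 17 members were seen only under chow, 23 only in HFD WT and 20 only in HFD Sirt3 AKI. A further 22 were seen in both high fat diet groups but not in chow WT, 18 in all 3 groups, 4 in chow WT and HFD Sirt3 AKI, and 1 in chow WT and HFD WT.

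**Figure D1:**
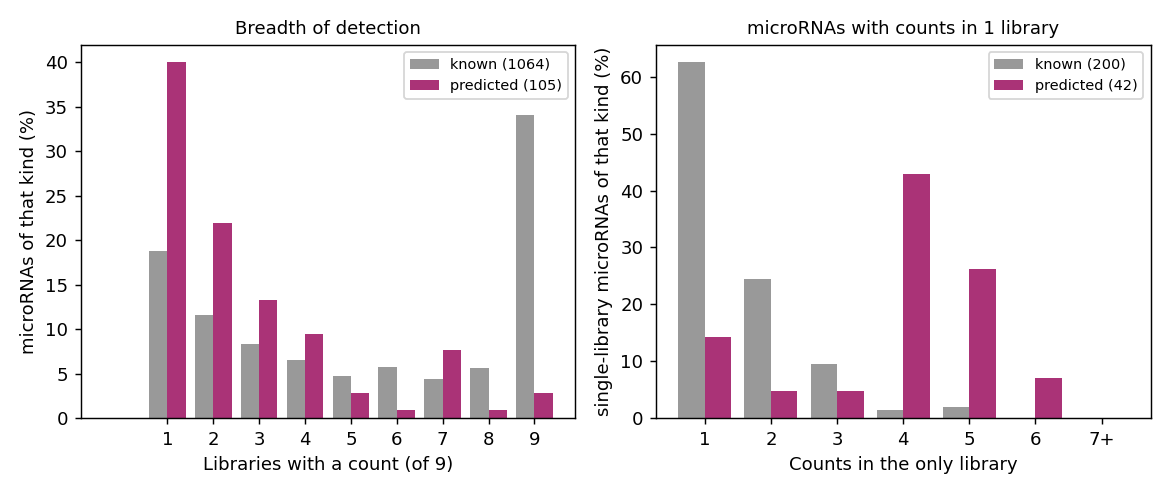
Left, percentage of the 1064 known (grey) and 105 predicted (purple) microRNAs that had a count in 1 to 9 libraries. Right, for the 200 known and 42 predicted microRNAs with counts in 1 library, the percentage with each number of counts there: the known ones peak at 1 count and the predicted ones at 4.

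The predicted microRNAs took a larger share of counts in chow WT than in either high fat diet group. The chow WT libraries held 248, 238 and 270 predicted counts, HFD WT 151, 124 and 151, and HFD Sirt3 AKI 125, 120 and 119, although the chow WT libraries were the shallowest. As a share, chow WT replicates 1 to 3 had 0.0808%, 0.0812% and 0.12%, those of HFD WT 0.00698%, 0.00611% and 0.00773%, and those of HFD Sirt3 AKI 0.00420%, 0.00694% and 0.00564%. All chow WT libraries lay above all others, and the high fat diet groups overlapped. The exact (Clopper-Pearson) 95% interval of the lowest chow WT share was 0.0710 to 0.0915%, and that of the highest share in another library was 0.00654 to 0.00906%. No molecular identifiers are named, so PCR copies count as reads and these intervals cover counting error only.

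The mean share of the chow WT libraries was 0.0940 ± 0.0225%, against 0.00694 ± 8.08e-04% for HFD WT (SD, n = 3), a ratio of 13.5 (two-sided exact permutation p = 0.1, the smallest that 3 against 3 allows, adjusted p = 0.15 over 3 comparisons). In HFD Sirt3 AKI it was 0.00559 ± 0.00137%, 16.8 times below chow WT (exact permutation p = 0.1, adjusted p = 0.15). HFD Sirt3 AKI and HFD WT did not differ beyond their spread (exact permutation p = 0.2). The single HFD Sirt3 AKI library of the larger batch, replicate 1, had the lowest share of the 9. Since all chow WT libraries were shallower than all others, depth and diet cannot be told apart for this share.

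A few members held most chow WT counts. Member 13_8063 and the 17 members seen in chow WT only held 258 and 434 of the 756 predicted counts of that group. The remaining 87 members, chosen here after their values were seen and therefore not tested, took 0.00760 ± 0.00162% of chow WT counts, 0.00663 ± 7.08e-04% of HFD WT counts and 0.00522 ± 0.00124% of HFD Sirt3 AKI counts (SD, n = 3). This choice removed members high in chow WT and kept those seen only in a high fat diet group, so these shares are no evidence on the rest.

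More members were detected in the deeper groups at full depth, and fewer at equal depth. At full depth the chow WT libraries had 27, 23 and 22 members, HFD WT had 40, 34 and 37, and HFD Sirt3 AKI had 29, 34 and 36. With every library brought to the 225002 counts of the smallest, the expected numbers were 23.5, 21.9 and 22.0 for chow WT, 12.4, 10.5 and 11.7 for HFD WT, and 7.71, 12.1 and 10.8 for HFD Sirt3 AKI. The order of chow WT and the high fat diet groups was thus opposite at full and at equal depth. The 3 groups averaged 22.5 ± 0.886, 11.5 ± 0.937 and 10.2 ± 2.23 at equal depth, in the same order (SD, n = 3). Neither high fat diet group overlapped chow WT (exact permutation p = 0.1, the smallest possible, adjusted p = 0.15). The difference between the high fat diet groups was within their spread (exact permutation p = 0.5). Known microRNAs detected at this depth numbered 478 ± 18.2, 435 ± 6.11 and 467 ± 29.6, again in this order.

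**Figure D2:**
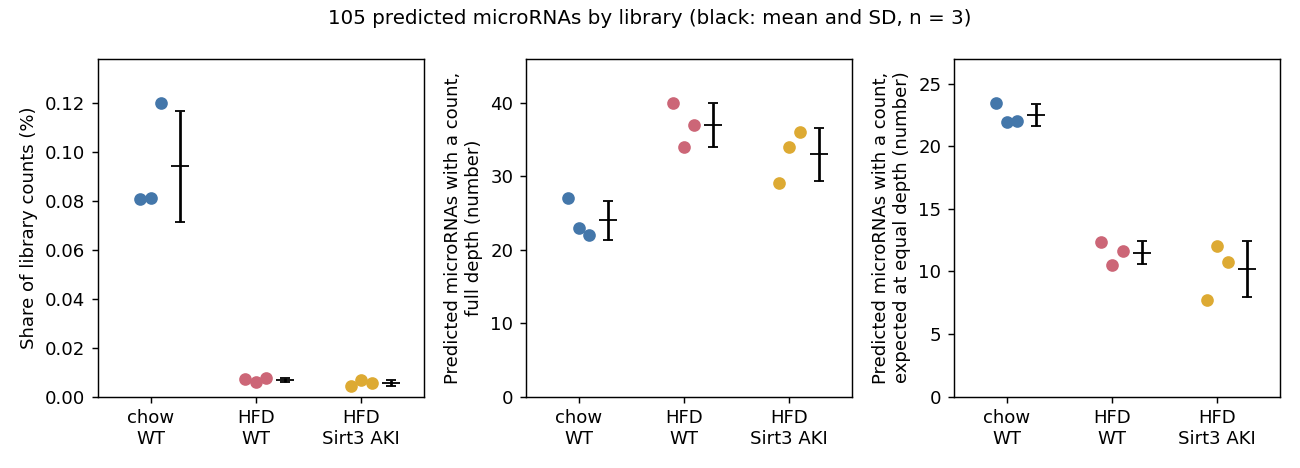
Share of library counts in the 105 predicted microRNAs (left, %), number detected at full depth (middle) and number expected at the depth of the smallest library (right). Points are libraries, black marks the mean and SD of 3. Chow WT is highest in share (0.0808 to 0.12%) and at equal depth (21.9 to 23.5), and lowest at full depth (22 to 27).

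The most abundant member, 13_8063, was detected in all 9 libraries and was highest in chow WT. Its counts were 71, 69 and 118 under chow, 5, 5 and 9 for HFD WT, and 9, 10 and 5 for HFD Sirt3 AKI. In CPM, the counts scaled to the TMM-normalised library total (normalised CPM), chow WT stood at 181, 180 and 394, HFD WT at 2.78, 3.26 and 5.97, and HFD Sirt3 AKI at 3.24, 5.29 and 2.62. All 3 chow WT libraries were above all others, with replicate 3 above the other two. In serum, fewer vesicles of a kind and less RNA per vesicle cannot be told apart. The group levels were 252 ± 123, 4.00 ± 1.72 and 3.72 ± 1.40 normalised CPM (SD, n = 3).

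A pair of members, 15_11735 and 5_24224, had the same counts as each other in all 9 libraries and were seen in chow WT only. Each had 41, 45 and 37 counts in chow WT and 0 in the 6 high fat diet libraries. At the chow WT share of counts, 916 counts of each would stand over the 3 HFD WT libraries. With a floor of 3 counts over a group, which covers counting error only, their normalised CPM was at least 184.6-fold lower in HFD WT and at least 251-fold lower in HFD Sirt3 AKI. The floor stands for the group at 0. These bounds and those below take the chow WT counts as exact, so the counting error of chow WT is not covered. Whether their reads come from one locus or from both cannot be told from counts.

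A pair of further members with high chow WT levels was also at 0 in all high fat diet libraries. Member 6_27403 had 36, 17 and 24 counts in chow WT, at least 116-fold above HFD WT and at least 157-fold above HFD Sirt3 AKI. Member 11_4481 had 10, 16 and 20, at least 69.0-fold and 93.8-fold above the same groups. The lowest chow WT level of these members was 25.5 normalised CPM, that of 11_4481 in replicate 1.

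Some scarcer members were also in all 3 chow WT libraries and at 0 in HFD WT, at lower counts. Member 10_3035 had 4, 3 and 4 counts in chow WT, and 19_16589 had 6, 2 and 3. Both were at 0 elsewhere. With the 11 chow WT counts of each taken as exact, the floor made each at least 16.5-fold lower in HFD WT and 22.4-fold lower in HFD Sirt3 AKI. At so few counts the true fold could be smaller. Member 1_1698 had 2, 4 and 1 counts in chow WT and 0 elsewhere. Member 15_11567 had 6, 5 and 3 in chow WT and 0 in HFD WT, at least 21.0-fold lower, but 6 in HFD Sirt3 AKI replicate 3 and 0 in the other two libraries of that group. Member 19_16010 had 1, 3 and 1 in chow WT and 1 in HFD Sirt3 AKI replicate 3.

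Of the 17 members seen in chow WT only, 7 were in all 3 of its libraries and 6 in a single one, where the highest had 6 counts. At an equal share, a single chow WT count corresponds to 7.45 counts over the HFD WT libraries and 8.26 over those of HFD Sirt3 AKI. The members 1_2453, 2_17681 and 2_18570, named after their values were seen, rest on 1 count each. For known microRNAs, 30 of 1064 (2.82%) were seen in chow WT only, against 17 of 105 predicted ones (16.2%). Of these known microRNAs 2 had 10 or more counts, miR-696 with 6, 1 and 6 and miR-712-3p with 3, 8 and 10, against 6 predicted ones.

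**Figure D3:**
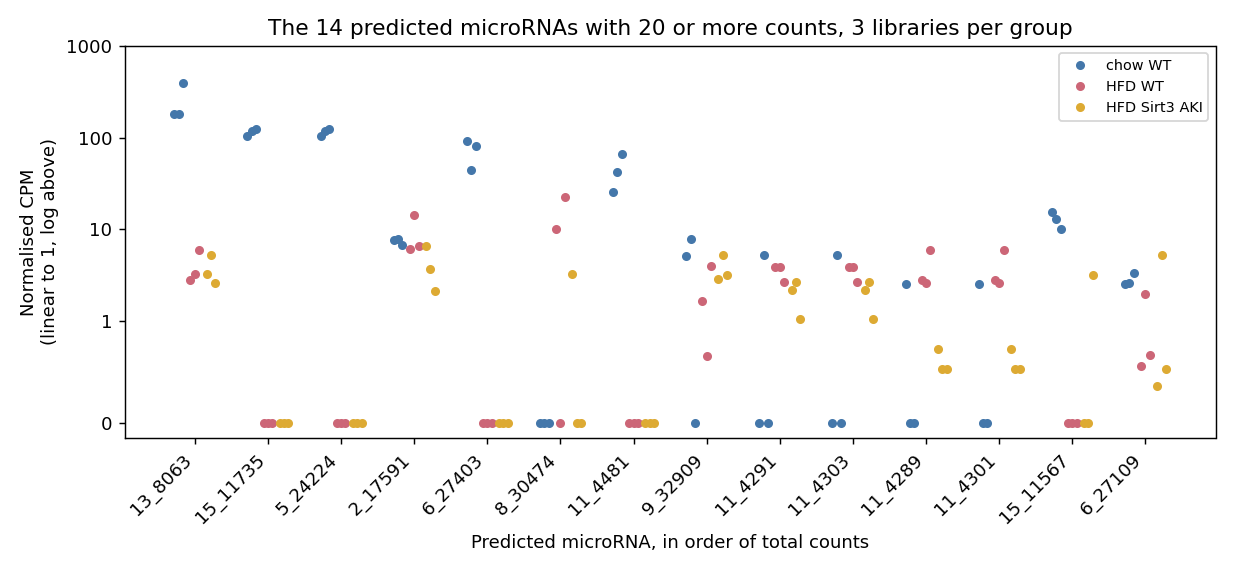
Normalised CPM (linear up to 1, logarithmic above) of the 14 predicted microRNAs with 20 or more counts, one point per library, coloured by group. Members 13_8063, 15_11735, 5_24224, 6_27403 and 11_4481 are at or above 25.5 in every chow WT library and at or below 5.97 in every other one.

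The converse distribution, absence from chow WT, was mostly below what the chow WT depth could show. Of the 65 members without a chow WT count, only 8_30474 had an expected chow WT count above 3 at its share over the high fat diet libraries, namely 3.88. The next highest expected count was 0.892. Member 8_30474 had 18, 0 and 34 counts in HFD WT and 9, 0 and 0 in HFD Sirt3 AKI, so its presence was uneven within both groups. It failed the expression filter of the test. Replicate 3 alone held 34 of its 52 counts in HFD WT, so no fold over chow WT is given.

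Other members found across the groups had low counts. Member 2_17591 had 3, 3 and 2 chow WT counts, 11, 22 and 10 for HFD WT, and 18, 7 and 4 for HFD Sirt3 AKI. Its level was 7.39 ± 0.616, 9.03 ± 4.60 and 4.09 ± 2.22 normalised CPM in that order (SD, n = 3), and the groups overlapped except chow WT and HFD Sirt3 AKI. Member 9_32909 had 2, 3 and 0 counts, then 3, 1 and 6, then 8, 10 and 6, or 4.31 ± 3.97, 2.10 ± 1.71 and 3.77 ± 1.32 normalised CPM. Its groups overlapped.

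Member 6_27109 had 1 count in each chow WT library, 1, 3 and 1 for HFD WT, and 1, 10 and 1 for HFD Sirt3 AKI. Its high library was HFD Sirt3 AKI replicate 2, the one with the most brain and hepatocyte microRNA, whose part in this value was not tested. Members 7_28659, 6_25710, 7_27819, 4_23421, 15_11107 and 5_24716, with 13 to 18 counts each, were in all 3 HFD WT libraries, and 7_28659 and 4_23421 in all 3 of HFD Sirt3 AKI too. At 8 or 9 counts, 12_6606 had 3, 3 and 2 in HFD WT and none elsewhere, 9_31521 was in all 3 HFD WT libraries, and 17_13381 was in all 3 of HFD Sirt3 AKI. Member 12_6606 was the only one in all 3 HFD WT libraries and in no other group. No member was in all 3 HFD Sirt3 AKI libraries alone.

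Repeated count patterns were common. A total of 43 members fell into 15 sets with identical counts in every library, so the 105 rows held 77 distinct patterns. Of these sets 8, with 26 members, had their counts in a single library, at 4 or 5 counts each, where equal values can coincide. The other 7 sets, with 17 members, had counts in 2 or more libraries. The most abundant set was 15_11735 and 5_24224. The next were 11_4291 with 11_4303 (32 counts each) and 11_4289 with 11_4301 (23 each), followed by 17_13967 with 17_14664 (11 each). A total of 29 predicted microRNAs also had the counts of some known microRNA, but none of these had more than 6 counts.

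The members 11_4289, 11_4291, 11_4301 and 11_4303 have identifiers close to one another, and their counts repeated in alternation. Members 11_4291 and 11_4303 each had 0, 2 and 0 chow WT counts, 7, 6 and 4 for HFD WT, and 6, 5 and 2 for HFD Sirt3 AKI. Members 11_4289 and 11_4301 each had 1, 0 and 0, then 5, 4 and 9, then 2, 1 and 1. For the second pair HFD WT (2.61 to 5.97 normalised CPM) did not overlap HFD Sirt3 AKI (0.524 to 0.721). The pooled ratio of HFD Sirt3 AKI to HFD WT was 0.164, with an exact counting interval of 0.0403 to 0.496. This interval covers counting error only, not the spread between libraries, and the pair is below the filter of the test. Members 7_27644, 7_27646, 7_27648, 7_27650 and 7_27652, named after their values were seen, each had 2 counts in HFD WT replicate 2 and 2 in HFD Sirt3 AKI replicate 2. Their second parts rise in steps of 2.

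Members of a single library mostly had 4 to 6 counts. Of these 42 members 32 (76.2%) had 4 to 6 counts there and 6 (14.3%) had exactly 1, and the highest had 6. Of the 200 known microRNAs with counts in a single library, 7 (3.50%) had 4 to 6 and 125 (62.5%) had exactly 1. Members with fewer than 4 counts over all libraries numbered 11 (10.5%), against 279 known microRNAs (26.2%). Each library held between 1 and 9 members that no other library had, 1 to 3 for chow WT, 5 to 7 for HFD WT and 5 to 9 for HFD Sirt3 AKI. Only in the batch of HFD Sirt3 AKI replicates 2 and 3 were 15 members seen, of which 19_16861 alone was in both libraries, at 1 and 5 counts.

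The effect of diet was tested over all microRNAs with edgeR's quasi-likelihood test. Only 8 predicted microRNAs (7.62%) passed its expression filter, against 406 known ones (38.2%), and they held 809 of the 1546 predicted counts. Of these 8, the members 13_8063, 15_11735, 5_24224, 6_27403, 11_4481 and 15_11567 fell in HFD WT over chow WT and none rose, at an adjusted p below 0.05. Of all 414 tested microRNAs 37.7% changed, with 16.2% falling and 21.5% rising. With library totals in place of the trimmed mean of M values (TMM) the members' calls were the same, while those of all tested went from 89 higher and 67 lower to 20 and 143, and the median of their log2 fold changes went from 0.15 to -0.57. All 6 reached the level set by the filter through chow WT, where they are high. Passing in that way favours members that fall, so the count supports nothing further. This holds for 13_8063 too, which was at 2.62 to 5.97 normalised CPM in the high fat diet libraries. Member 15_11567 also needed its 6 counts in HFD Sirt3 AKI replicate 3, a library outside this comparison and of the other batch label. Without that library, or with only chow WT and HFD WT fitted, it was not tested. With only the larger batch, 10 predicted microRNAs were tested, 15_11567 not among them, of which 5 fell and 8_30474 rose. Of all 458 tested in that batch 74 fell and 114 rose.

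Member 13_8063 fell by 5.95 on the log2 scale (SE 0.46, edgeR adjusted p = 7.47e-06), a pooled ratio of 61.1-fold. The pair 15_11735 and 5_24224 had an adjusted p of 1.67e-05, 6_27403 of 1.29e-04, 11_4481 of 5.26e-04 and 15_11567 of 0.0125 in edgeR. Each of these was at 0 in HFD WT, and the bounds given above stand in for a fitted fold change. The other tested members, 2_17591 and 9_32909, had log2 fold changes of 0.27 (SE 0.65) and -1.11 (SE 1.01), with edgeR adjusted p = 0.784 and 0.448. The value of 2_17591 was -0.46 with library totals.

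**Figure D4:**
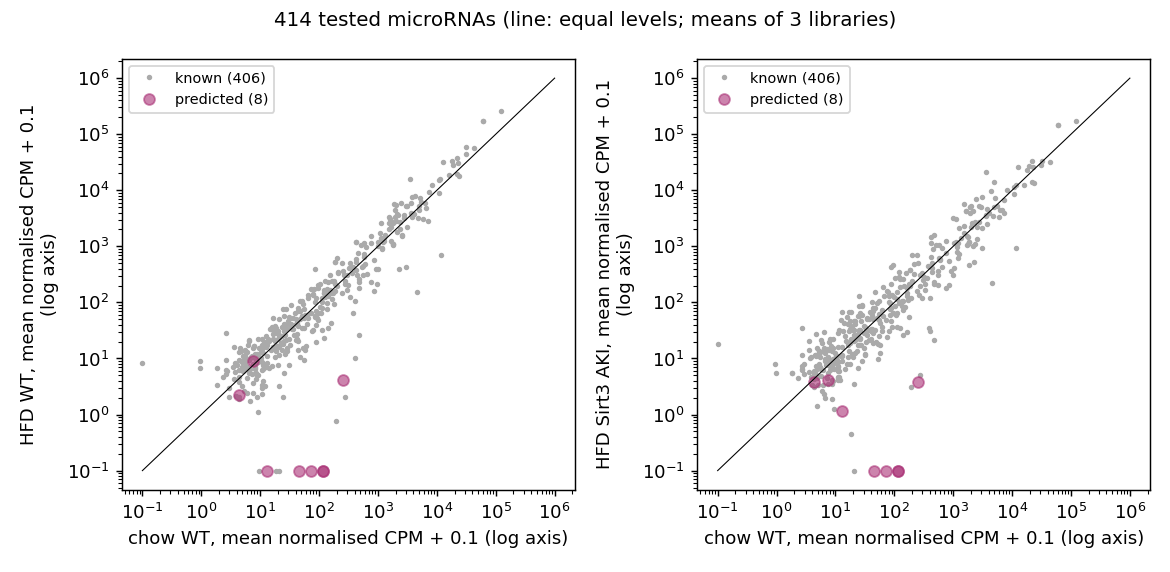
Mean normalised CPM (+ 0.1, log axes) of the 414 tested microRNAs in chow WT against HFD WT (left) and HFD Sirt3 AKI (right). Grey points are 406 known and purple points 8 predicted microRNAs, and the line marks equal levels. Of the purple points 6 lie well below the line in both panels, 5 of them on the left and 4 on the right at the floor of 0 counts.

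HFD Sirt3 AKI was compared with HFD WT for the effect of adipose Sirt3 under the diet. None of the 8 tested predicted microRNAs changed by edgeR, 0 had an unadjusted p below 0.05, and 0 changed by DESeq2 or by limma. Of all tested microRNAs 8.94% changed, 1.45% rising and 7.49% falling. The direction of these calls depended on the scaling, with 6 higher and 31 lower by TMM, 36 and 11 with library totals, and 38 and 27 by DESeq2, and only 1 was called with a batch term. Members 15_11735, 5_24224, 6_27403 and 11_4481 had no counts in either group. The log2 fold change of member 13_8063 was -0.10 (SE 0.51) with an edgeR adjusted p of 0.916, and 0.21 with library totals. Member 2_17591 had -1.08 (SE 0.52, adjusted p = 0.219) and 9_32909 had 0.81 (SE 0.77, adjusted p = 0.542). Without HFD Sirt3 AKI replicate 1, member 8_30474 entered the test and was called lower (edgeR adjusted p = 0.0347). That library held all 9 counts of this member in the group. The HFD Sirt3 AKI libraries left carry another batch label than HFD WT, so genotype and batch cannot be told apart in this call.

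HFD Sirt3 AKI and chow WT differ in both diet and genotype, and this comparison shares its chow WT libraries with the diet comparison. Members 13_8063, 15_11735, 5_24224, 6_27403, 11_4481 and 15_11567 were lower and none was higher, against 19.6% lower and 20.3% higher of all tested, 39.9% in all. Each of these members reached the level set by the filter through chow WT, where it is high, so here too the count is no support. Member 15_11567 was not tested without HFD Sirt3 AKI replicate 3. With library totals the calls over all tested were 40 higher and 129 lower, in place of 84 and 81. Member 13_8063 fell by 6.05 (SE 0.45, edgeR adjusted p = 3.67e-06), a pooled ratio of 65.8-fold. Member 15_11567 fell by 3.64 (SE 1.20, edgeR adjusted p = 0.0394). This call was lost without HFD Sirt3 AKI replicate 1 (log2 fold change -2.93, adjusted p = 0.0531) and without the second (-3.60, 0.119) or the third (-3.76, 0.0824) library of chow WT. It was also lost with a filter of 3 counts in 3 libraries (-3.45, adjusted p = 0.0505). The members 2_17591 and 9_32909 had log2 fold changes of -0.80 (SE 0.68) and -0.29 (SE 0.93), with adjusted p = 0.379 and 0.832.

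The known microRNAs with a pattern most like 13_8063 over the 9 libraries were also high in chow WT. By Pearson's r of log2 CPM, given as a description over libraries that share group and depth, the nearest of all were the members 11_4481 (r = 0.992), 15_11735 and 5_24224 (0.989) and 6_27403 (0.987). The nearest known ones were miR-429-3p (0.982), of the epithelial miR-200 family, miR-5126 (0.981) and miR-712-3p (0.977). The latter is processed from the precursor of ribosomal RNA. Among known microRNAs the most negative fitted fold changes in HFD WT over chow WT were those of miR-6538, miR-712-3p, miR-712-5p, miR-203b-3p and miR-1291.

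Their counts are given for chow WT and then for HFD WT. For miR-712-5p they were 11, 4 and 5 against 0 in all 3 libraries, and for miR-712-3p 3, 8 and 10 against 0. For miR-6538 they were 79, 65 and 60 against 0, 2 and 1, and for miR-203b-3p 126, 116 and 56 against 6, 4 and 0. For miR-1291 they were 4, 3 and 3 against 0 in all 3. All 5 passed the test in HFD WT over chow WT, with edgeR adjusted p between 8.08e-06 (miR-6538) and 0.00526 (miR-1291). They were chosen for their fold change in this same comparison, so their passing is no support.

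The mature sequences of those with an entry in RefSeq (build GRCm38.p6) are shown to let these known microRNAs be told apart by seed and base composition. Of those printed, miR-429-3p and miR-5126 were chosen for their likeness to 13_8063, and miR-6538, miR-203b-3p and miR-1291 for their fold change in HFD WT. They run 5′ to 3′ with the seed, bases 2 to 8, in capitals.
miR-429-3p: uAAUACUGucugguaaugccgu
miR-5126: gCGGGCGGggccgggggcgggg
miR-6538: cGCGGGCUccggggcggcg
miR-203b-3p: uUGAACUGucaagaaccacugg
miR-1291: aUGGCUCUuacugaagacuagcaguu

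No 2 of these 5 share a seed. The sequences of miR-5126 and miR-6538 are entirely and 94.7% G or C, and those of the other three 40.9 to 45.5%. In GENCODE M21, on the same build, miR-1291 (chr15:98519828-98519853, minus strand) lies in an exon of the small nucleolar RNA gene Snora34 and in an intron of Kansl2, all on one strand. The sequence of miR-6538 (chr12:26414970-26414988, minus strand) lies in an intron of Rnf144a, and that of miR-5126 (chr1:84695890-84695911, plus strand) overlaps an exon of Dner on the opposite strand. That of miR-429-3p overlaps an exon of Gm13648 and lies in an intron of Ttll10, both on its own strand. That of miR-203b-3p overlaps an exon of Mir203 on the opposite strand. The submitters' processing notes name the build mm8 without a role, and none of the coordinates given here come from the deposited files.

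A list of 20 known microRNAs with unusual origins or annotation, chosen in part from earlier results of these data, was set beside the predicted ones. Of its 12 members in the files 10 were tested, of which 8 fell and none rose in HFD WT over chow WT (median log2 fold change -4.09, against 0.15 over all tested, of which 16.2% fell and 21.5% rose). Since the list holds miR-6538, miR-712-3p, miR-712-5p and miR-203b-3p, which are among those with the most negative fold changes, its direction is not independent evidence. In HFD Sirt3 AKI over HFD WT none of the 10 changed by edgeR (median 0.34, against -0.021 over all tested). One that did not pass in HFD WT over chow WT, mmu-miR-1983, had 1, 4 and 0 chow WT counts and 23, 16 and 23 for HFD WT (log2 fold change 1.46, SE 0.68, edgeR adjusted p = 0.12).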

How the data were processed

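Small RNA from serum vesicles was measured in 9 libraries, grouped by their labels. The authors deposited whole-number counts per microRNA, with the predicted ones in a table of their own, and TPM values. The deposited TPM equal each count scaled to its library total (largest difference 4.94e-05). Bowtie 0.12.2 and mm8 are named, without a role, in the submitters' processing notes, and the prediction program is not given in the sources used here. Known and predicted counts were joined and tested together with edgeR (quasi-likelihood test, filterByExpr with a minimum count of 10, TMM scaling, one model over all 9 libraries, Benjamini-Hochberg adjustment over 414 microRNAs). The fit was also run on simulated counts with the same spread for every microRNA. That setting differs from these data, so the run is no support for the calls here. Single values were compared with two-sided exact permutation tests over libraries. Detection at equal depth is the hypergeometric expectation at 225002 counts. Bounds use a floor of 3 counts over a group at 0 and take the counts of the other group as exact. Members named are those that pass the filter, are in all 3 libraries of a group, are among the 10 with most counts, share identical counts of 10 or more, or have 10 or more counts in one group and 0 in another. Known microRNAs named are the 3 nearest in pattern to 13_8063 and the 5 with the most negative fold change in HFD WT over chow WT. Any other name was picked later. The members and lists were chosen with earlier results of these data known. Alternatives covered scaling, filter, DESeq2, limma on log2(TPM + pseudocount), batch, groups fitted, identical rows and leaving out each library.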

Additional observations from a re-analysis of the deposited data

How the results depend on the processing

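The count of all microRNAs changed in HFD Sirt3 AKI over HFD WT, 37, was the value that moved most. It was 24 with DESeq2 size factors, 65 with DESeq2, 18 with a filter of 3 counts in 3 libraries, 1 with a batch term, 23 in the larger batch, 3 with only these groups fitted, and 13 to 102 leaving out each replicate in turn. The 102 came without HFD Sirt3 AKI replicate 1, where that group and HFD WT carry different batch labels throughout. Genotype and batch cannot be told apart there. Among predicted microRNAs HFD Sirt3 AKI over HFD WT had 0 calls, and 0 to 1 leaving out each replicate, the 1 being without that same library. With no filter, 11, 1 and 12 of 105 predicted microRNAs changed in HFD WT over chow WT, HFD Sirt3 AKI over HFD WT and HFD Sirt3 AKI over chow WT. Of all 1169 microRNAs 171, 55 and 171 changed in that setting, so the members' calls do not stand out. In HFD WT over chow WT, 10 members were lower and 8_30474 was higher, against 64 lower and 107 higher of all. Detection in HFD WT minus chow WT turned from -11.0 at equal depth to 13 at full depth and 8.67 for 3 or more counts, and in HFD Sirt3 AKI minus chow WT from -12.3 to 9 and 8.33. Members 13_8063, 15_11735, 6_27403 and 11_4481 were called in both chow WT comparisons in all 21 alternatives.

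Log2 fold changes that turned sign were never called. For 13_8063 in HFD Sirt3 AKI over HFD WT they were 0.21 with library totals, 0.17 and 0.21 with limma, and -0.35 to 0.30 leaving out each replicate in turn (above 0 without HFD WT 3, HFD Sirt3 AKI 1 or HFD Sirt3 AKI 3). For 2_17591 in HFD WT over chow WT they were -0.46 with library totals, -0.48 and -0.54 with limma and -0.21 (without HFD WT 2) to 0.52 leaving out each replicate, and in HFD Sirt3 AKI over chow WT 0.0055 in the larger batch. For 9_32909 in HFD Sirt3 AKI over chow WT they were 0.063 and 0.94 with limma and -0.77 to 0.41 (without chow WT 2) leaving out each replicate. The cause of these moves was not tested. Replicate numbers did not pair the libraries (correlations of same-numbered deviations -0.0803 to 0.191), and with a replicate block 154, 31 and 161 microRNAs changed, with 6, 0 and 6 predicted ones.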
